A study of Mus musculus with 29 samples.

Results

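The 5 genes described here are Slc17a6, Gbx2, Oxt, Gal and Calcr, whose transcripts are best known from the thalamus and hypothalamus and were measured in dissected mouse caudate-putamen and prefrontal cortex. Every probe set annotated with one of these symbols was taken, which gave 6 of the 22626 probe sets on the array, 2 of them for Slc17a6. The genes were picked because their signals differed between strains in the caudate-putamen arrays. Their caudate-putamen values, and the regional differences built on them, are therefore given as a description with standard errors and no test. Differences within the prefrontal cortex were not used in the choice and were tested.

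All mice were of the FVB/N background, and 29 arrays were made from dissected tissue (18 from prefrontal cortex, 11 from caudate-putamen). The 3 strains were FVB/N itself, TgS mice, which express the AChE-S variant of human acetylcholinesterase, and TgR mice, which express its AChE-R variant. Each strain was studied naive or after MPTP, a compound converted in the brain into a toxin of dopamine neurons. MPTP was given in 4 injections of 20 mg/kg at intervals of 2 h (80 mg/kg in all), and tissue was taken 4 days later. There were 6 MPTP-injected and 6 saline-injected mice per strain (36 mice). Each strain had 4 arrays of naive prefrontal cortex. The exposed TgR caudate-putamen was measured on 1 array, and each of the other 8 groups on 2. The sources used here do not give the promoters of the transgenes, the ages and sexes of the mice, the number of mice per array, or whether the naive arrays hold the saline-injected mice. If arrays of a group share mice, their spread is technical in part. The description field of FVB/N naive caudate-putamen replicate 2 calls it MPTP-exposed, while its title, source and characteristics call it naive. It was used as naive, and values without it are given for the members and for the listed genes whose call or size it changes.

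Vesicular glutamate transporter 2, the product of Slc17a6, loads glutamate into synaptic vesicles and marks excitatory neurons of the thalamus, hypothalamus and brainstem, whereas cortical excitatory neurons mainly use Slc17a7. Gbx2 is a homeobox transcription factor needed for the development of thalamic neurons. Oxt encodes the precursor of oxytocin, made by large neurons of the paraventricular and supraoptic nuclei, and Gal encodes galanin, a peptide of several hypothalamic cell groups. Calcr encodes the calcitonin receptor, which with RAMP proteins also forms amylin receptors and is found in the hypothalamus and the ventral striatum. Medium spiny neurons, the main cells of the caudate-putamen, are GABAergic. The tissue receives thalamic axons but holds few of the cell bodies that make these transcripts. In such bulk tissue, fewer cells of a type and less RNA per cell cannot be told apart.

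In GRCm38.p6, Slc17a6 lies at chr7:51621830-51671126, Gbx2 at chr1:89927962-89931176, Oxt at chr2:130574519-130577054, Gal at chr19:3409915-3414544 and Calcr at chr6:3685678-3764713. The 250 bases before a RefSeq start of Oxt (chr2:130575919-130576168, plus strand), Slc17a6 (chr7:51621580-51621829, plus strand) and Gal (chr19:3414545-3414794, minus strand) are shown as 3 examples, 2 peptides and a transporter. Gbx2 and Calcr changed in the same directions after MPTP in the caudate-putamen. Both strands were searched for AGGTCA, the nuclear receptor hexamer, for GGGCGG, a GC box core, and for TAATTA, a homeodomain core, and matches are in capitals.
Oxt: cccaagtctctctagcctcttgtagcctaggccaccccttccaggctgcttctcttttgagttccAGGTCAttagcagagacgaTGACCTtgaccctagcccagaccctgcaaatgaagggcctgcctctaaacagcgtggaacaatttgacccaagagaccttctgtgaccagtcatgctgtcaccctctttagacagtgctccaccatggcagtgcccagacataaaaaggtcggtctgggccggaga
Slc17a6: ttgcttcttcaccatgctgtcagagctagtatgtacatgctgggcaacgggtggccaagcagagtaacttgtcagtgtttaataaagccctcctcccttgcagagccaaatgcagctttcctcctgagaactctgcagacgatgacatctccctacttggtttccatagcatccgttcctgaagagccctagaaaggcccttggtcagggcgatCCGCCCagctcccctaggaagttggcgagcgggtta
Gal: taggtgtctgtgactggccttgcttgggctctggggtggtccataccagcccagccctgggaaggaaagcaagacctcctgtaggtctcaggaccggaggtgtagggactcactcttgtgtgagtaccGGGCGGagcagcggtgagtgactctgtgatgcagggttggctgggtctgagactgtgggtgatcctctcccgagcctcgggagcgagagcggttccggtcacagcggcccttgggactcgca
The Oxt sequence holds AGGTCA at positions -185 to -180 and its reverse complement TGACCT at -166 to -161, counted back from the start. AGGTCA was found before 14.0% of the 32851 RefSeq starts searched in windows of the same length. GGGCGG lies before Gal at -122 to -117 and, as its reverse complement CCGCCC, before Slc17a6 at -36 to -31. It is also present before Gbx2 at -137 to -132 and before the other listed start of Calcr at -128 to -123, and 32.7% of starts hold it. TAATTA, held by 4.84% of starts, was found before the other listed start of Slc17a6. No searched word was common to the members and rare elsewhere, and a match is a description of letters, not of binding.

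In the prefrontal cortex, the 6 naive arrays numbered replicate 1 or 2 differed from all the remaining 23 arrays. Their log2 signal of the Y-linked gene Eif2s3y was 3.42 to 3.83, against 8.41 to 9.20 elsewhere. Their Xist signal was 8.62 to 10.61, against 6.78 to 7.24, and the 5′ minus 3′ difference of the actin controls reached -2.30. By Eif2s3y and Xist, the 6 arrays read as female tissue and the other 23 as male. Prefrontal results are therefore given with and without these 6 arrays. The linear model used below has a term, the set term, for naive replicates 3 and 4, whose source label is spelled differently. It places the naive prefrontal level at that of replicates 1 and 2 in comparisons with exposed or caudate-putamen arrays. In those comparisons MPTP or region cannot be told apart from the other traits of the 6 arrays. Without the 6 arrays the level is that of replicates 3 and 4. In the caudate-putamen the actin difference separated FVB/N from the other strains. It read -1.41 and -1.26 in naive and -1.18 and -1.22 in exposed FVB/N. In TgS it read -0.67 and -0.92 naive and -0.89 and -0.84 exposed, and in TgR -0.87 and -0.99 naive and -0.93 exposed. Its part in the caudate-putamen differences from FVB/N was not tested. The regional markers followed the labels. Drd2, a dopamine receptor of striatal neurons, read 10.74 to 11.43 in the caudate-putamen and 6.25 to 8.16 in the prefrontal cortex, and Neurod6, a transcription factor of cortical excitatory neurons, read 5.12 to 8.37 and 9.57 to 10.75. No 2 arrays held identical values, and the highest correlation between any 2 was 0.9983.

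In the naive caudate-putamen, the transcript of the transporter was higher in TgS than in FVB/N or TgR mice. All values are log2 signals as deposited, which are compared between arrays for one probe set and never between probe sets. Slc17a6, by probe set 1428379_at, read 9.97 and 10.81 in the 2 TgS arrays, 8.91 and 8.94 in FVB/N, and 8.86 and 9.28 in TgR. By its other probe set, 1418610_at, it read 9.12 and 9.84 in TgS, 7.68 and 7.82 in FVB/N, and 7.80 and 8.09 in TgR. Both TgS arrays were above all 4 arrays of the other strains, and TgS replicate 2 was the higher by both probe sets. TgS exceeded FVB/N by 1.46 ± 0.21 (SE) at 1428379_at, or 2.76-fold, and by 1.73 ± 0.27 at 1418610_at, or 3.32-fold. The probe sets report one gene and are not independent measurements.

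The thalamic transcription factor Gbx2 followed the same order. It read 5.27 and 5.63 in naive TgS, 4.34 and 4.62 in FVB/N, and 4.64 and 4.98 in TgR. The lowest TgS array was 5.27 and the highest of the other strains 4.98, so the groups did not overlap. The difference of TgS from FVB/N was 0.97 ± 0.14 (1.96-fold). The lowest value in the whole table is 3.04, and without detection calls the background level of this probe set is unknown.

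The peptide transcripts showed the same order of TgS over the other strains. Oxt read 11.85 and 12.45 in naive TgS, 10.64 and 10.99 in FVB/N, and 10.42 and 11.17 in TgR, a difference of 1.34 ± 0.30 from FVB/N (2.52-fold). Gal read 9.05 and 9.26 in TgS, 8.38 and 8.58 in FVB/N, and 8.36 and 8.79 in TgR, a difference of 0.68 ± 0.14 (1.60-fold). For both peptides the 2 TgS arrays lay above the 4 others, and FVB/N and TgR overlapped.

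Calcr, the receptor, differed in that TgR was also above FVB/N. It read 7.56 in each naive TgS array, 7.14 and 7.20 in TgR, and 6.75 and 6.80 in FVB/N, so the 3 strains were in separate ranges. The TgS difference from FVB/N was 0.78 ± 0.15 and the TgR difference was 0.40 ± 0.15. Gbx2 was the other member with both TgR arrays above both FVB/N arrays (0.33 ± 0.14), the nearest arrays being 4.64 and 4.62. Among all transcripts 20.6% had that order, and 0 were called by limma, with 1066 at an unadjusted p under 0.05. For Slc17a6, Oxt and Gal the TgR difference lay between -0.02 and 0.20. Without the FVB/N array of conflicting labels, which read 4.62 for Gbx2, the TgR difference was 0.47 ± 0.17 for Gbx2, 0.42 ± 0.19 for Calcr, and 0.15 to 0.26 for the other members.

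For all 6 probe sets, both naive TgS arrays were above both naive FVB/N arrays. Of all transcripts, 21.2% had that order, and 2.19% were called between these groups at an adjusted p under 0.05, 1.32% with TgS higher. Because this contrast was used to choose the genes, nothing is read from their count. Compared with naive TgR, which 18.7% of transcripts placed below TgS without overlap, the TgS differences ran from 0.39 ± 0.15 for Calcr to 1.54 ± 0.27 for Slc17a6 at 1418610_at. In the comparison of TgS with TgR, 0.773% of transcripts were called. Leaving out 1 array at a time kept the TgS minus FVB/N difference between 1.04 and 1.88 for Slc17a6 at 1428379_at, 0.79 and 1.15 for Gbx2, 1.03 and 1.64 for Oxt, 0.57 and 0.78 for Gal, and 0.76 and 0.81 for Calcr. Without the FVB/N array of conflicting labels the differences were 1.48 ± 0.26 for Slc17a6, 1.11 ± 0.17 for Gbx2, 1.51 ± 0.37 for Oxt, 0.78 ± 0.17 for Gal and 0.81 ± 0.19 for Calcr.

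**Figure D1:**
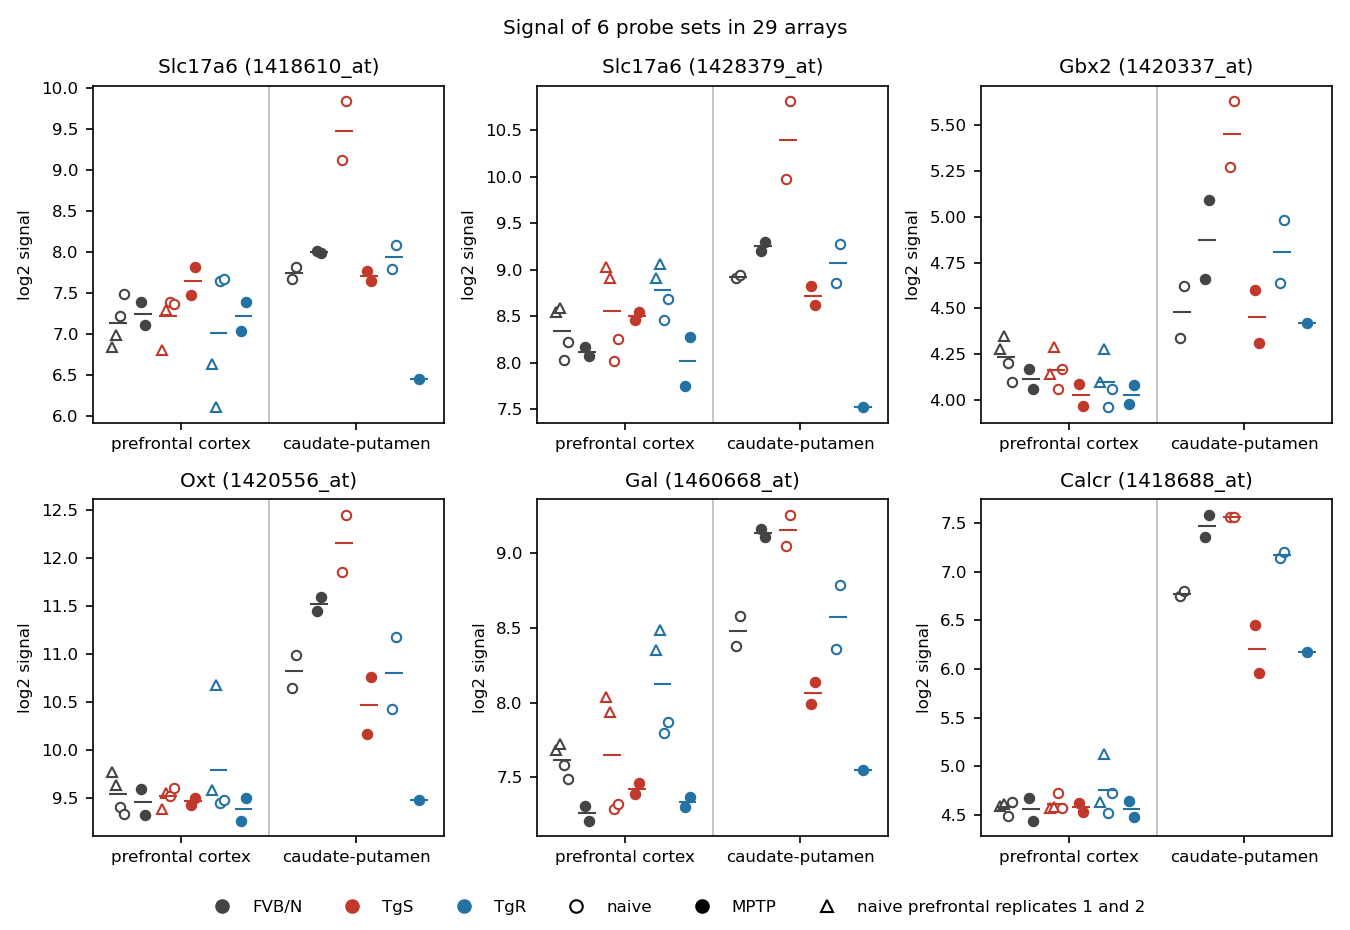
Log2 signal of each of the 6 probe sets on every array, by region, strain and treatment; each point is 1 array. The 2 naive TgS caudate-putamen arrays are the highest of the 11 caudate-putamen arrays for Slc17a6, Gbx2 and Oxt, and Calcr is the one gene whose caudate-putamen arrays all lie above all 18 prefrontal arrays.

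After MPTP the order of the strains in the caudate-putamen was different. In FVB/N mice every member was higher after MPTP, and in TgS and TgR mice every member was lower. Slc17a6 at 1428379_at read 9.20 and 9.30 in MPTP-exposed FVB/N, 8.82 and 8.62 in TgS, and 7.52 in the single TgR array. At 1418610_at the same arrays read 8.01 and 7.99, 7.77 and 7.65, and 6.46. The TgR array was the lowest of all 29 for 1428379_at.

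Gbx2 read 4.66 and 5.09 in FVB/N after MPTP, 4.60 and 4.31 in TgS, and 4.42 in TgR. Oxt read 11.44 and 11.59, 10.16 and 10.76, and 9.48. Gal read 9.16 and 9.11, 7.99 and 8.14, and 7.55. For all 3 genes the FVB/N arrays were the higher ones, and for Oxt and Gal the TgR array was the lowest of the caudate-putamen. For Calcr the FVB/N arrays read 7.36 and 7.59, the TgS arrays 6.45 and 5.96, and the TgR array 6.18, so its TgR value lay between the 2 TgS arrays.

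Within FVB/N, the difference of MPTP from naive was 0.33 ± 0.21 for Slc17a6 at 1428379_at, 0.25 ± 0.27 at 1418610_at, 0.40 ± 0.14 for Gbx2, 0.70 ± 0.30 for Oxt, 0.65 ± 0.14 for Gal and 0.70 ± 0.15 for Calcr. The 2 Slc17a6 differences were within 2 standard errors of 0. In this strain 21.6% of all transcripts had both MPTP arrays above both naive arrays, and 0.265% were called. Without the naive array of conflicting labels these differences ran from 0.32 ± 0.34 for Slc17a6 at 1418610_at to 0.87 ± 0.37 for Oxt.

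Within TgS, signals after MPTP lay below both naive arrays for all 6 probe sets, an order held by 21.4% of transcripts, with 1.41% called. The difference was -1.67 ± 0.21 for Slc17a6 at 1428379_at, -1.77 ± 0.27 at 1418610_at, -1.0 ± 0.14 for Gbx2, -1.69 ± 0.30 for Oxt, -1.09 ± 0.14 for Gal and -1.36 ± 0.15 for Calcr. In fold terms these were 3.18, 3.41, 1.99, 3.23, 2.13 and 2.56. With 1 array left out at a time, the Slc17a6 difference at 1428379_at lay between -2.09 and -1.25 and that of Oxt between -1.99 and -1.39.

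Within TgR, the 1 MPTP array lay below both naive arrays for every member, as it did for 32.3% of transcripts, with 0.110% called. The differences were -1.55 ± 0.26 for Slc17a6 at 1428379_at, -0.39 ± 0.18 for Gbx2, -1.32 ± 0.37 for Oxt, -1.02 ± 0.17 for Gal and -0.99 ± 0.19 for Calcr. Their errors assume that this lone array varies like the other groups. A pattern of higher FVB/N and lower TgS signal after MPTP, with no overlap in either strain, was shared by all 6 probe sets and by 779 of all transcripts (3.44%). The members were chosen on such patterns, so that share is given only for scale.

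**Figure D2:**
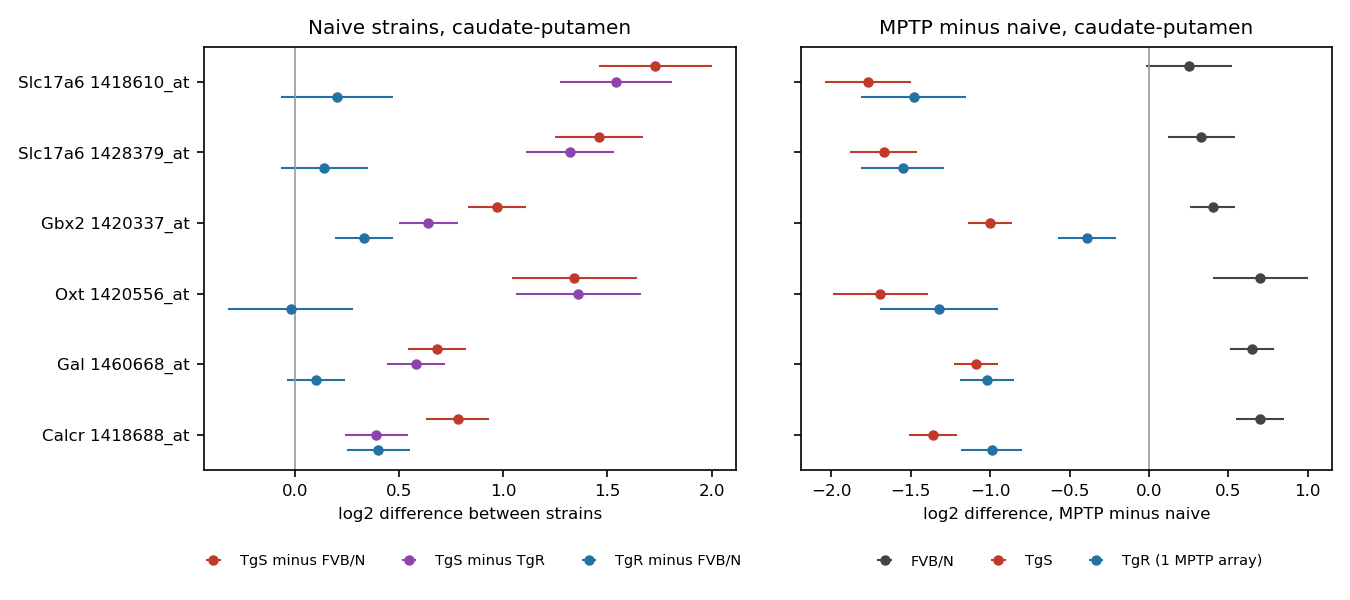
Log2 differences in the caudate-putamen for the 6 probe sets, with bars of 1 standard error from the linear model: the 3 comparisons of naive strains, and MPTP minus naive within each strain (TgR has 1 MPTP array). All 6 probe sets are above 0 for naive TgS against either strain and for FVB/N after MPTP, and below 0 for TgS and TgR after MPTP.

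Between MPTP-exposed strains, TgS was below FVB/N for all 6 probe sets with no overlap, as were 28.2% of transcripts (0.694% called). The differences were small for Slc17a6 (-0.29 ± 0.27 at 1418610_at and -0.53 ± 0.21 at 1428379_at) and largest in size for Calcr (-1.27 ± 0.15). They were -1.06 ± 0.30 for Oxt and -1.07 ± 0.14 for Gal.

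To set the members beside other genes of the same places, lists of thalamic, habenular, hypothalamic and basal forebrain genes were counted across the whole table. The lists exclude the members but, like them, were chosen with earlier results of these data known. Their adjusted p-values are therefore a description and not independent support. Fits were made with limma on all 22626 probe sets, and a gene counts as changed at a Benjamini-Hochberg adjusted p under 0.05. In naive TgS against FVB/N caudate-putamen, where 2.19% of transcripts were called and the median difference of all transcripts was -0.03, 3 of 20 measured thalamic genes changed. Tcf7l2, a transcription factor of thalamic neurons, rose by 0.42 ± 0.09 (adjusted p = 0.0153), and Rgs16, a regulator of G protein signalling, rose by 0.67 ± 0.15 (adjusted p = 0.0239). Lhx2, a homeobox factor that is also cortical, fell by 0.62 ± 0.11 (adjusted p = 0.00417). In exposed mice the caudate-putamen differed from the prefrontal cortex by -1.02 for Lhx2, -0.32 for Rgs16 and 0.06 for Tcf7l2. The median of the 20 was 0.26, and 17 were above 0. Other settings gave 1 to 5 calls, and 0 were left without FVB/N naive replicate 1 or without TgS naive replicate 2.

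Of 6 measured habenular genes, Tac2, which encodes neurokinin B and is also hypothalamic, rose by 0.90 ± 0.19 (adjusted p = 0.0116). Its signal was lower in the caudate-putamen than in the prefrontal cortex of exposed mice (-1.03). In the list of 11 genes enriched in hypothalamus and basal forebrain, 2 rose and the median was 0.27, with all 11 above 0. These were Dlk1, an imprinted membrane protein (0.90 ± 0.17, adjusted p = 0.00669), and Resp18, a protein of neuroendocrine cells (0.61 ± 0.13, adjusted p = 0.0168). Of the 11, 1 passed without the FVB/N array of conflicting labels or without either TgS array, and 0 without FVB/N naive replicate 1. The Tac2 call was lost without either FVB/N array or without TgS naive replicate 2. Without the array of conflicting labels the adjusted p was 0.0741 for Tac2, 0.0925 for Resp18 and 0.0672 for Rgs16.

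Among 8 measured genes of the globus pallidus and basal forebrain, the neighbours of the caudate-putamen, 3 rose and the median was 0.62. They were Ngfr, a neurotrophin receptor of cholinergic basal forebrain neurons (0.77 ± 0.18, adjusted p = 0.0308), Lhx6, a transcription factor of pallidal cells and interneurons (0.74 ± 0.18, adjusted p = 0.0373), and Slc18a3, the vesicular acetylcholine transporter (0.66 ± 0.17, adjusted p = 0.0451). Their adjusted p-values lie near the threshold. Other settings gave 0 to 5 calls, and 0 remained without FVB/N naive replicate 1 or without either TgS array.

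Hypothalamic peptides other than the members did not pass the test in this comparison (0 of 9 measured), with a median of 0.52. In this list 1 gene passed without TgS naive replicate 1 or without TgR naive prefrontal replicate 2. Of the 9, 3 had an unadjusted p under 0.05. Avp, which encodes vasopressin and lies beside Oxt in the genome, read 10.15 and 10.43 in naive TgS, 6.71 and 8.53 in FVB/N, and 7.02 and 7.19 in TgR. Its TgS difference of 2.67 ± 0.90 from FVB/N had an adjusted p of 0.149 by limma, with the 2 FVB/N arrays far apart. The higher of these, 8.53, is the array of conflicting labels, without which the Avp difference was 3.58 ± 1.07 (adjusted p = 0.121). Trh, thyrotropin-releasing hormone, differed by 0.94 ± 0.40 (adjusted p = 0.28) and Hcrt, the orexin precursor, by 0.52 ± 0.20 (adjusted p = 0.232). Hypothalamic transcription factors and hormone receptors gave 0 calls of 17 by limma, with a median of -0.02 and 2 genes at an unadjusted p under 0.05. In this list 1 gene passed without TgS naive prefrontal replicate 1, TgR naive prefrontal replicate 2 or either exposed FVB/N caudate-putamen array.

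Among 11 measured receptors and partners of the member peptides and of the calcitonin receptor, 0 passed the test by limma in naive TgS against FVB/N, with a median of 0.00. Without TgS naive replicate 1, 1 passed in this comparison and 1 after MPTP in TgS. The oxytocin receptor gene Oxtr differed by 0.07 ± 0.11 and the galanin receptor genes Galr1 and Galr2 by -0.11 ± 0.14 and -0.07 ± 0.12. For the accessory proteins of Calcr, Ramp1 differed by 0.00 ± 0.14, Ramp2 by 0.05 ± 0.10 and Ramp3 by 0.31 ± 0.21. One gene of this list, Calcb, had an unadjusted p under 0.05 (-0.20 ± 0.09, adjusted p = 0.348). The other vesicular glutamate transporters, Slc17a7 and Slc17a8, have no probe set with a single symbol and were not analysed here.

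After MPTP the lists moved in TgS as follows. Of the thalamic genes 2 of 20 fell: Tnnt1, a slow skeletal troponin also made by thalamic neurons (-1.11 ± 0.16, adjusted p = 0.000996), and Tcf7l2 (-0.39 ± 0.09, adjusted p = 0.0282). Tac2 fell by 1.03 ± 0.19 (adjusted p = 0.00583), and Resp18 and Ngfr fell by 0.55 ± 0.13 and 0.78 ± 0.18 (adjusted p = 0.041 and 0.0344). Irs4, an insulin receptor substrate of the hypothalamus, fell by 0.57 ± 0.13 (adjusted p = 0.0371) as the 1 call of 17 in its list. These calls rest on few arrays. Tac2 was lost without TgS naive replicate 2 or exposed replicate 1, the pallidal list gave 0 calls without either naive TgS array or exposed replicate 2, and Irs4 was lost without any 1 of the 4 TgS arrays. The thalamic list gave 1 call without naive replicate 2 or either exposed array. The enriched list gave 0 calls without any 1 of 13 arrays, 10 of them from other groups than those compared, and 2 without TgS naive replicate 1. Other peptides gave 0 calls of 9 by limma, with 6 at an unadjusted p under 0.05. Their median was -0.77, and 1 of the 9 was above 0. Avp read 6.79 and 6.72, a difference of -3.54 ± 0.90 (adjusted p = 0.0558).

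In FVB/N after MPTP, 0 genes of the thalamic, habenular, hypothalamic, enriched, pallidal and partner lists passed the test by limma, and each list held 1 to 3 genes at an unadjusted p under 0.05. The 11 enriched genes were all above 0, with a median of 0.38, and 15 of the 20 thalamic genes were above 0, with a median of 0.06. Unlike the members, Tnnt1 was lower in exposed FVB/N (6.30 and 6.62) than in naive FVB/N (6.75 and 6.90). The 1 exposed TgR array has no spread of its own and is 1 dissection, so its list genes are given as differences without a test. From naive TgR, Resp18 differed by -1.14 and Lhx6 by -1.24, while Tnnt1, which fell in TgS, differed by 0.10. From exposed FVB/N, a comparison in which 1.04% of transcripts passed the threshold when the lone array is assumed to vary like the others, the 11 enriched genes had a median of -0.89 with 0 above 0. Among these differences were -1.44 for Magel2 and -0.43 for Ndn, both imprinted, and that of the habenular list gene Tac2 was -1.63.

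Markers of some other tissues also varied among the caudate-putamen arrays. The 11 measured genes of cortical excitatory neurons averaged 8.44 to 8.75 in the naive FVB/N arrays, 7.86 to 8.0 in naive TgS and 8.22 to 8.25 in naive TgR. After MPTP they averaged 7.99 to 8.26 in FVB/N, 8.55 to 8.63 in TgS and 8.53 in TgR. Their lowest arrays were in naive TgS and exposed FVB/N, the groups with the highest member means. The opposite order was not kept throughout. Naive TgR lay below naive FVB/N with similar Slc17a6, Oxt and Gal, and the exposed TgR array, lowest for Oxt and Gal, was not the highest here. In naive TgS against FVB/N, 5 of the 11 were called and all 5 were lower. Neurod6 fell by 2.62 ± 0.39 (adjusted p = 0.000947) and Tbr1, a cortical transcription factor, fell by 1.47 ± 0.22 (adjusted p = 0.000956). After MPTP in TgS 5 rose, Neurod6 by 2.07 ± 0.39 (adjusted p = 0.00782) and Tbr1 by 1.32 ± 0.22 (adjusted p = 0.00337) among them. These counts were 3 without FVB/N naive replicate 1 in the first comparison, and 2 without TgS naive replicate 1 or exposed replicate 2 in the second. In FVB/N after MPTP, Neurod6 fell by 2.02 ± 0.39 (adjusted p = 0.0257) and Tbr1 by 1.04 ± 0.22 (adjusted p = 0.0466). Without the array of conflicting labels Neurod6 fell by 2.40 ± 0.46 (adjusted p = 0.0409) and the Tbr1 difference was -1.27 ± 0.26 (adjusted p = 0.0549). Without FVB/N naive replicate 1 or exposed replicate 2 both calls were lost, with adjusted p of 0.529 and 0.538 for Neurod6 and 0.719 and 0.698 for Tbr1.

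The 11 genes of the choroid plexus, which lies in the adjoining ventricle, averaged 7.69 to 7.77 in naive TgS, 6.33 to 6.45 in naive TgR, 6.76 to 6.89 in exposed TgS and 6.26 in exposed TgR. They spread from 6.90 to 7.80 in naive FVB/N and from 6.17 to 7.54 in exposed FVB/N, a wider spread than in the other groups. Of these genes 5 were higher in naive TgS than in TgR, a comparison in which 0.773% of transcripts were called. In naive TgS against FVB/N 0 passed by limma, with 1 at an unadjusted p under 0.05 (8 without the array of conflicting labels, again with 0 passing). Without either exposed FVB/N array 1 passed. After MPTP in TgS, Otx2 was called, and this call was lost without any single TgS array. The list count there ran from 0 to 6 with single arrays left out. The 11 striatal projection neuron genes averaged 11.02 to 11.43 over all 11 arrays and the 9 oligodendrocyte genes 10.98 to 11.59, with 0 calls of either in naive TgS against FVB/N (limma; 1 striatal and 0 oligodendrocyte genes at an unadjusted p under 0.05). Of 7 dopamine neuron genes, Aldh1a1 was higher in TgS (0.75 ± 0.12, adjusted p = 0.00192), a call lost without FVB/N naive replicate 1 (adjusted p = 0.0711). Over all lists, 15 genes were called in naive TgS against FVB/N and 12 after MPTP in TgS. Of the 15, Cck, Neurod6 and Tbr1 passed with any single array left out, and of the 12, Fezf2, Nptx1 and Tnnt1. The part of cortical, choroid or pallidal tissue in the member differences was not tested.

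**Figure D3:**
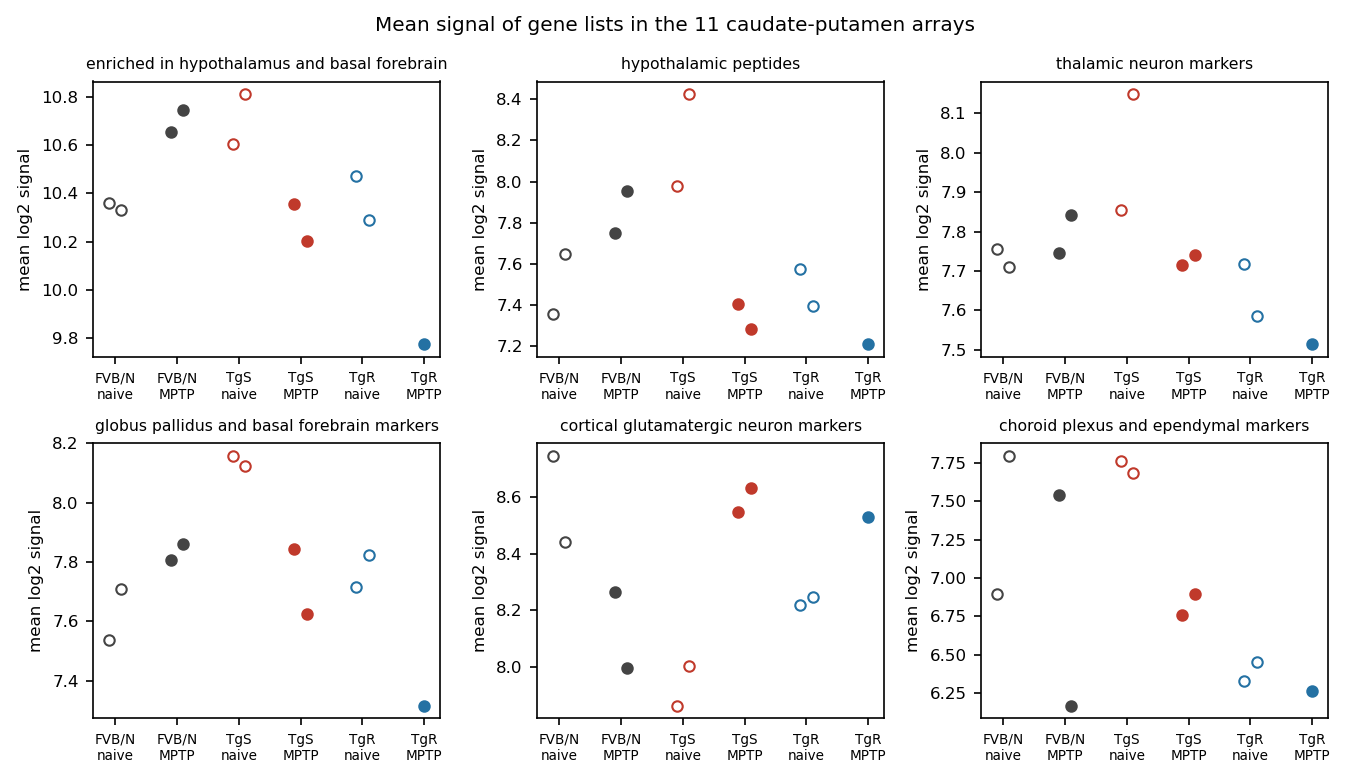
Mean log2 signal of 6 gene lists on each caudate-putamen array, by strain and treatment; each point is 1 array. The list enriched in hypothalamus and basal forebrain is high in naive TgS (10.60 to 10.81) and exposed FVB/N (10.65 to 10.75), where the cortical list is low (7.86 to 8.0 and 7.99 to 8.26).

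Over the 11 caudate-putamen arrays the members resembled each other to different degrees. Pearson r was 0.988 between the 2 Slc17a6 probe sets, 0.949 between Oxt and Gal, 0.936 between Oxt and Slc17a6 at 1428379_at, and 0.901 between Gal and Calcr. The lowest was 0.714, between Calcr and Slc17a6 at 1418610_at. These are descriptions over arrays that share group structure and dissection, and the members were picked on these arrays.

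Among 12392 other genes, the most like Calcr was Ecel1, a neuronal endopeptidase of the enriched list, with r of 0.996 over the 11 arrays. Ecel1 read 9.10 and 9.18 in naive FVB/N, 9.63 and 9.71 in naive TgS, 9.37 and 9.40 in naive TgR, 9.54 and 9.69 in exposed FVB/N, 8.93 and 8.66 in exposed TgS, and 8.83 in exposed TgR. Its separate ranges for the 3 naive strains repeat those of Calcr. The most like Oxt was Tac2 (0.974) and the most like Gal was Pcbd1, which encodes a cofactor-recycling enzyme (0.969). Slc17a6 at 1428379_at was closest to Nrip3 (0.976), followed by Kctd9 (0.966) and Nap1l3 (0.962), and the nuclear receptor Nr2f2 was also among the 5 closest (0.957). Gbx2 was closest to Arhgap24 (0.955), then the growth factor Fgf1 (0.940), and the peptide genes Adcyap1 (0.935) and Trh (0.927) followed. Over the 18 prefrontal arrays the same pairs had lower r: 0.385 for Calcr and Ecel1, 0.561 for Oxt and Tac2, 0.868 for Gal and Pcbd1, and 0.761 for Slc17a6 and Nrip3.

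Between the regions, Calcr was the most clearly separated. Its lowest caudate-putamen array (5.96) was 0.83 above its highest prefrontal array (5.13), and in naive mice the caudate-putamen exceeded the prefrontal cortex by 2.48 ± 0.09 (5.59-fold). Every other member overlapped. The number of caudate-putamen arrays above all 18 prefrontal arrays was 9 of 11 for Gbx2, 7 for Oxt, 6 for Gal and 5 for each Slc17a6 probe set.

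The naive regional difference was 1.49 ± 0.17 for Oxt, 0.70 ± 0.08 for Gal and 0.67 ± 0.08 for Gbx2, in a comparison in which 60.1% of transcripts were called. By the set term these differences, like that of Calcr, take the naive prefrontal level from the 6 arrays that stood apart. For Slc17a6 the size depended on the probe set and on those arrays. It was 1.61 ± 0.15 at 1418610_at and 0.62 ± 0.12 at 1428379_at, and without those arrays 0.92 ± 0.11 and 1.18 ± 0.12. For Gal the difference was 1.18 ± 0.06 without them. At 1418610_at the naive caudate-putamen averaged 8.39, those 6 arrays 6.78 and all 12 naive prefrontal arrays 7.12. At 1428379_at these means were 9.46, 8.84 and 8.56. In MPTP-exposed mice, where 43.0% of transcripts were called, the difference was 2.06 ± 0.10 for Calcr, 1.05 ± 0.19 for Oxt, 0.91 ± 0.09 for Gal, 0.52 ± 0.09 for Gbx2, and 0.02 ± 0.17 and 0.29 ± 0.13 for Slc17a6 at 1418610_at and 1428379_at. These are means over strains that differed in direction for the transporter. At 1428379_at the exposed caudate-putamen and prefrontal means were 9.25 and 8.12 in FVB/N and 8.72 and 8.50 in TgS, while the single TgR array read 7.52 against a prefrontal mean of 8.02. At 1418610_at FVB/N read 8.0 in the caudate-putamen and 7.25 in the prefrontal cortex, TgS read 7.71 and 7.65, and the TgR values were 6.46 and 7.22. Without the array of conflicting labels the naive regional differences were 1.59 ± 0.17 for Slc17a6 at 1418610_at, 0.62 ± 0.13 at 1428379_at, 0.63 ± 0.09 for Gbx2, 1.43 ± 0.19 for Oxt, 0.67 ± 0.09 for Gal and 2.48 ± 0.10 for Calcr.

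Of all 22626 transcripts in naive mice, 5706 were called higher in the caudate-putamen and 7898 lower (60.1% called), against the same prefrontal level. Among the lists in this comparison, all 11 enriched genes were higher in the caudate-putamen, with a median of 1.09. Ecel1 had the largest difference of them, at 2.74 ± 0.15 (adjusted p = 2.3e-11). The thalamic genes divided, 5 higher and 6 lower of 20, with a median of -0.05. Of the peptides 2 of 9 were higher, Nts, neurotensin (3.16 ± 0.23, adjusted p = 1.01e-09), and Cartpt (1.47 ± 0.14, adjusted p = 5.87e-08), and 3 were lower.

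In the prefrontal cortex the members varied less. Gbx2 stayed between 3.96 and 4.35 over all 18 arrays, and Calcr between 4.44 and 4.72 except in TgR naive replicate 2, at 5.13. Oxt stayed between 9.26 and 9.77 except in that same array, at 10.67. Avp read 10.91 there, against 6.29 to 7.77 in the other prefrontal arrays. Gal in this array was 8.49, and its actin 5′ minus 3′ difference of -2.30 was the lowest of the prefrontal arrays. The strain differences seen in naive caudate-putamen were not found here. TgS minus FVB/N gave 0 calls of 6, against 10.9% of transcripts, with differences from -0.07 ± 0.10 for Gbx2 to 0.21 ± 0.15 for Slc17a6 at 1428379_at. No member had an unadjusted p under 0.05 in it, by limma.

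Galanin was the member that differed between naive prefrontal strains. In the order of replicates 1 to 4, Gal read 8.35, 8.49, 7.80 and 7.87 in TgR, 7.68, 7.72, 7.58 and 7.49 in FVB/N, and 8.04, 7.94, 7.29 and 7.32 in TgS. All 4 TgR arrays were above all 4 FVB/N arrays, while TgR and TgS overlapped. TgR exceeded FVB/N by 0.51 ± 0.10 (limma adjusted p = 0.0294), the 1 call among 6 probe sets in a comparison with 2.26% of transcripts called, 1.30% with TgR higher. TgS was below TgR by 0.48 ± 0.10 (adjusted p = 0.00396), again the 1 call, against 18.6% of transcripts, 11.6% with TgS lower. Without the 6 arrays the TgR minus FVB/N difference was 0.30 ± 0.11 (adjusted p = 0.51) and the TgS minus TgR difference was -0.53 ± 0.11 (adjusted p = 0.0125). The TgR minus FVB/N call was also lost without any 1 of 4 arrays: FVB/N replicate 1 or 2 (adjusted p = 0.145 and 0.134) and TgR replicate 1 or 2 (adjusted p = 0.0751 and 0.0903).

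Gal was also lower after MPTP in the prefrontal cortex of FVB/N and TgR mice, and in TgS only with the 6 arrays that stood apart included. It read 7.31 and 7.21 in exposed FVB/N, 7.39 and 7.46 in exposed TgS, and 7.30 and 7.37 in exposed TgR. With all arrays it fell by 0.60 ± 0.13 in FVB/N (limma adjusted p = 0.00227), in TgS it fell by 0.46 ± 0.13 (adjusted p = 0.00739), and in TgR it fell by 1.03 ± 0.13 (adjusted p = 1.04e-05). The exposed arrays were below all 4 naive arrays in FVB/N and TgR, and in TgS they lay between naive replicates 1 and 2 above and 3 and 4 below. Averaged over strains the fall was 0.70 ± 0.08 (adjusted p = 8.75e-07). The exposed arrays averaged 7.34, the 6 arrays that stood apart 8.04, and naive replicates 3 and 4 averaged 7.56. In the same fit 25.5% of all transcripts were called in FVB/N (13.1% lower), 40.6% in TgS (21.6% lower and 19.1% higher) and 43.7% in TgR (26.5% lower). For the mean of strains 60.9% were called, so a called fall was common against that naive level.

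These falls depended on the arrays that stood apart: without them the TgS difference changed sign, the FVB/N call was lost and the TgR call remained. The differences were then -0.28 ± 0.11 in FVB/N (adjusted p = 0.0983), 0.12 ± 0.11 in TgS (adjusted p = 0.428) and -0.50 ± 0.11 in TgR (adjusted p = 0.0051), and the mean of strains was -0.22 ± 0.06 (adjusted p = 0.0101). The TgS call was also lost without exposed replicate 1 (adjusted p = 0.062). The TgR response did not differ from that of FVB/N beyond the threshold (-0.44 ± 0.17, adjusted p = 0.514), nor did that of TgS (0.14 ± 0.17, adjusted p = 0.8). No member's response differed between strains by these interaction tests, in which 0 of all transcripts were called for TgS (2815 at an unadjusted p under 0.05) and 0.00442% for TgR.

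Slc17a6 gave opposite results with its 2 probe sets in the prefrontal cortex. Averaged over strains, the exposed level was higher by 0.59 ± 0.15 at 1418610_at (limma adjusted p = 0.00295) and lower by 0.63 ± 0.12 at 1428379_at (adjusted p = 0.000236). By the set term the naive level is that of the 6 arrays, with means of 6.78 and 8.84, against 7.37 and 8.21 in the exposed arrays. MPTP and the other traits of the 6 arrays cannot be told apart there. Naive replicates 3 and 4 averaged 7.47 and 8.28. In TgR the signal at 1428379_at was lower after MPTP by 1.04 ± 0.19 in this fit (adjusted p = 0.000415). The naive TgR arrays read 8.91, 9.06, 8.46 and 8.68 (mean 8.78) and the exposed ones 7.75 and 8.28 (mean 8.02). In TgS the signal at 1418610_at was higher by 0.77 ± 0.24 in this fit (adjusted p = 0.0169), a call lost without exposed replicate 2 (difference 0.60). The naive TgS arrays read 6.81, 7.30, 7.40 and 7.37 (mean 7.22) and the exposed ones 7.48 and 7.82 (mean 7.65). With the replicate number as a block, 1428379_at also passed in FVB/N (-0.51 ± 0.18, adjusted p = 0.0462, against 0.0581 without the block). It also passed there without either exposed TgR prefrontal array (adjusted p = 0.0476) or either naive TgS caudate-putamen array (adjusted p = 0.0202). In TgR, 1418610_at passed without TgS naive replicate 2 (0.60, adjusted p = 0.0393) or TgR naive replicate 3 or 4 (0.62, adjusted p = 0.048 and 0.0442). Without the 6 arrays neither probe set passed in any strain, and the means of strains were -0.10 ± 0.11 and -0.07 ± 0.12 (adjusted p = 0.482 and 0.682).

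The disagreement sat in the 6 arrays. The difference between the probe sets, 1428379_at minus 1418610_at, was 0.85 to 1.31 in the 11 caudate-putamen arrays (median 1.06), 0.62 to 1.00 in the other 12 prefrontal arrays (median 0.81), and 1.60 to 2.95 in the 6 arrays (median 1.96), with no overlap between the 6 and the other 23. Its highest value, 2.95, belonged to TgR naive replicate 2. The correlation between the probe sets was 0.988 over the caudate-putamen arrays and -0.419 over the prefrontal arrays. The 5′ minus 3′ actin difference of the 6 arrays, -2.30 to -0.79, reached lower than that of the other prefrontal arrays, -0.92 to -0.62, and its part in the disagreement was not tested.

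**Figure D4:**
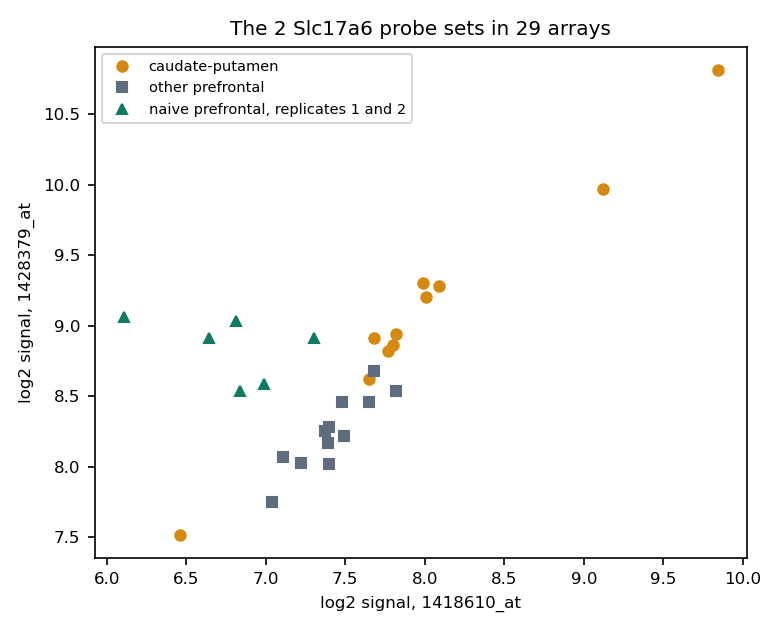
Log2 signals of the 2 Slc17a6 probe sets plotted against each other, 1 point per array, by region and set of arrays. The caudate-putamen arrays and 12 prefrontal arrays lie near 1 line, and the 6 naive prefrontal arrays of replicates 1 and 2 lie off it, with a difference of 1.60 to 2.95.

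The remaining members had no called MPTP difference in the prefrontal cortex. Averaged over strains they were -0.18 ± 0.08 for Gbx2 (adjusted p = 0.0653), -0.33 ± 0.17 for Oxt (adjusted p = 0.103) and -0.12 ± 0.09 for Calcr (adjusted p = 0.238). Without TgR naive replicate 1, Oxt passed for the mean of strains (-0.42, adjusted p = 0.0489) and in TgR (-0.75, adjusted p = 0.0497). Gbx2 passed for the mean of strains without either exposed FVB/N caudate-putamen array (-0.18, adjusted p = 0.0446). Among exposed mice, 0 of 6 probe sets were called between any 2 strains, where 0.362% of transcripts were called for TgS against FVB/N, 0.212% for TgR against FVB/N and 1.14% for TgS against TgR. Slc17a6 had the largest differences, 0.43 ± 0.27 and 0.48 ± 0.21 between TgS and TgR (adjusted p = 0.709 and 0.411), and the second had an unadjusted p of 0.0321.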

How the data were processed

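Total RNA was hybridised to Affymetrix arrays. The authors deposited log2 signals per probe set, made by RMA, with Affymetrix Expression Console and Affymetrix Power Tools named in the submitters' processing notes. The sources used here do not give their versions. RMA sets the arrays to a common distribution, so values are relative within a probe set. No detection calls or intensities were used, and the number of arrays limits the precision.

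Of 22690 probe sets, 64 controls were left out. The platform annotation gave 20380 of the rest 1 symbol, 691 several and 1555 none. A gene in a list is represented by its probe set with the highest mean. A linear model was fitted to the deposited values with limma 3.58.1 (R 4.3.3): 12 group means and a term for the set of arrays whose source label spells the prefrontal region differently (naive replicates 3 and 4), with 16 residual degrees of freedom. Tests were two-sided, with Benjamini-Hochberg adjustment over 22626 probe sets. The fit was tested on simulated data. Errors after ± are standard errors.

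The members and lists were chosen with earlier results of these data known. Genes named are the members, the 5 genes most like each of them in the caudate-putamen by Pearson r, and from each list those passing the test, or otherwise some of the 3 with the smallest p; the receptor and RAMP genes were named for their role. Residuals of naive prefrontal arrays with the same number in different strains correlated at 0.19 to 0.61, so a fit with the replicate number as a block was set beside each result; a difference of replicates 1 and 2 from the others could also give these values. Alternatives were no set term, the block, each region alone, leaving out the 6 arrays, quantile normalization, leaving out the lowest 0.25 of transcripts, a trended and robust variance, the mean of a gene's probe sets, and leaving out single arrays.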

Additional observations from a re-analysis of the deposited data

Results flagged for a closer look

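All 6 probe sets moved in opposite directions after MPTP in the caudate-putamen of FVB/N and TgS mice, with every exposed array on the same side of both naive arrays of its strain. Of all transcripts, 779 (3.44%) were likewise higher in FVB/N and lower in TgS without overlap. The differences were 0.25 in FVB/N and -1.77 in TgS for Slc17a6 at 1418610_at, and 0.33 and -1.67 at 1428379_at. They were 0.40 and -1.0 for Gbx2, 0.70 and -1.69 for Oxt, 0.65 and -1.09 for Gal, and 0.70 and -1.36 for Calcr. The difference between the strains was not tested, because the genes were chosen on these arrays.

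Within the naive prefrontal groups of 4 arrays, 3 of 18 combinations of group and probe set held an array whose gap to its nearest neighbour, as a share of the group's range, passed Dixon's critical value. Chance gives about 1 in 20 for independent groups, and these 18 share the same 12 arrays. Oxt read 10.67 in TgR replicate 2, against 9.44 to 9.58 in the other TgR arrays. Slc17a6 at 1418610_at read 6.81 in TgS replicate 1. Calcr read 4.72 in TgS replicate 3, where the other TgS arrays lay between 4.57 and 4.58. The first 2 of these are among the 6 arrays that stood apart.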

How the results depend on the processing

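The caudate-putamen differences kept their sign between TgS and FVB/N and within TgS under every alternative run. The prefrontal calls depended on the model. Of the 6 probe sets, the count called in naive TgR minus FVB/N went from 1 to 0 with no set term, with each region alone, and without the 6 arrays (0 to 1 with single arrays left out). In TgS minus TgR it went from 1 to 0 with no set term. For MPTP in FVB/N it went from 1 to 0 with no set term or without the 6 arrays, and to 2 with the replicate block, each region alone or quantile normalization (1 to 2 with single arrays left out). For MPTP in TgS it went from 2 to 0 with no set term or without the 6 arrays, and to 1 with the mean of probe sets (1 to 2). For MPTP in TgR it went from 2, and for the mean of strains from 3, to 1 with no set term, without the 6 arrays or with the mean of probe sets (2 to 3 and 3 to 4 with single arrays left out). Gal in TgS after MPTP turned to 0.12 without the 6 arrays, and the mean of strains of Slc17a6 at 1418610_at to -0.10, or -0.02 with the mean of probe sets. The replicate block changed no other call of a member. The cause of these changes was not tested.

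The count of all transcripts called in naive TgS minus FVB/N caudate-putamen was 495, with 161 to 2092 under other settings and 69 to 662 with single arrays left out. In TgS after MPTP it was 318, with 100 to 855 and 51 to 398. Replicate numbers of FVB/N and TgS caudate-putamen correlated at -0.35, and swapping those of TgS in the block, an alternative added after seeing the data, gave 391 calls.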
